A study of Sus scrofa with 4 samples.

Results

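The genes described here encode 10 amino acid transporters, SLC3A2, SLC7A5, SLC7A8, SLC7A6, SLC43A2, SLC43A1, SLC38A2, SLC1A5, SLC36A1 and SLC38A9, out of 29692 gene symbols measured by RNA sequencing in pig muscle. They were taken by symbol. The genes were chosen by what they transport and selected on breed differences in FPKM already known from these same libraries, so the breed values below, calls and the authors' q-values included, describe these libraries and are no independent test. Each symbol had its own row in the deposited table, so all 10 were found. The samples were muscle biopsies of pigs (Sus scrofa) from 2 breeds that differ in muscularity, Hampshire and Mali, with 2 libraries per breed and no treatment named. The labels used here give no muscle, age or sex, and do not say whether the libraries of a breed came from separate animals.

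Amino acids enter and leave muscle fibres through membrane carriers of several families. In the best studied arrangement, sodium-coupled carriers concentrate small neutral amino acids such as glutamine inside the cell, and exchangers of the L-type system let these out in return for leucine and other large neutral amino acids. Leucine and arginine in the cytosol and the lysosome then act through sensor proteins on mTORC1, the kinase complex that promotes protein synthesis and restrains autophagy. The L-type exchangers of the SLC7 family are light chains that reach the cell surface only when bound to the glycoprotein SLC3A2 (CD98 heavy chain), whereas the SLC43 carriers work without a partner.

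Values are FPKM, fragments scaled to gene length and to the number of mapped fragments, which allow levels of different genes to be set side by side. The table holds no read counts, so the depth behind each value is unknown. Summed FPKM ran from 516463 to 988614 per library, and genes of the mitochondrial genome took 17.1% to 42.5% of the sum. Fibre markers were abundant in every library, with skeletal actin (ACTA1) between 20637 and 46329 FPKM and 0 of 14 measured fibre markers at 0 throughout. The ratio of low FPKM values took a sharp common value between the replicate 1 libraries of both breeds, with 14.9% of low rows in the fullest bin, and between the replicate 2 libraries, with 5.55%. The other library pairs had at most 1.37%, so differences are also given within each replicate number. Replicate 1 is the library whose title has no suffix and replicate 2 the one with the suffix 1.

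The transporters differed widely in level. SLC3A2 and SLC38A2 led on average and made up 34.5% and 28.7% of the summed mean FPKM of the 10 genes. SLC7A8, SLC43A2, SLC7A5 and SLC1A5 followed with 15.01%, 8.82%, 5.89% and 3.15%, and SLC38A9, SLC7A6 and SLC36A1 with 1.88%, 1.35% and 0.649%. SLC43A1 came last with 0.0314%. The order was not fixed. SLC3A2 ranked first in every library but Hampshire replicate 2, where SLC38A2 did, and SLC7A8 moved from rank 6 in Hampshire replicate 1 to rank 2 in Mali replicate 2. A filter of at least 1 FPKM in at least 2 libraries kept 10075 genes, among them 8 of the 10 transporters. SLC36A1 reached 1 FPKM in a single library and SLC43A1 in none.

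**Figure D1:**
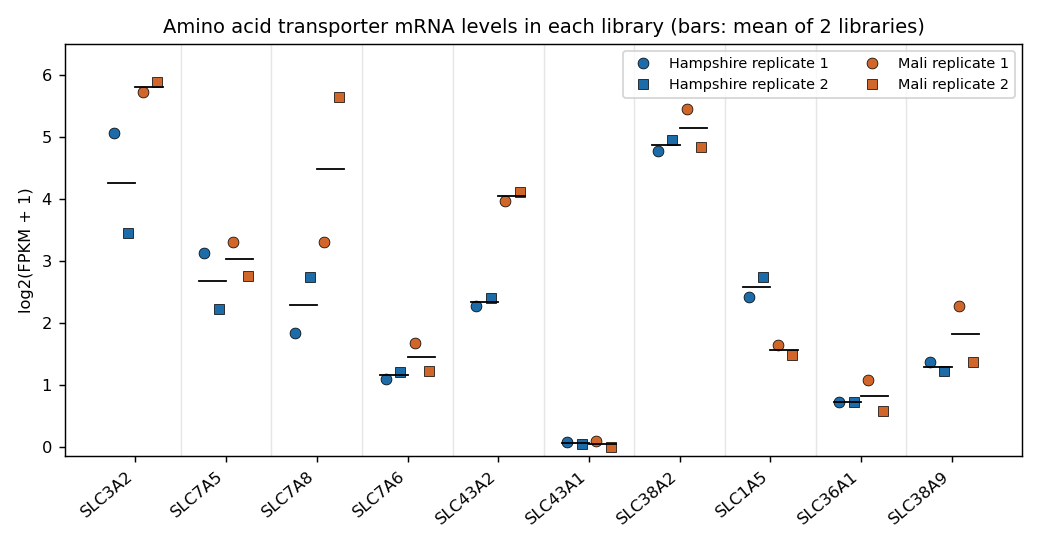
The vertical axis shows log2(FPKM + 1) of the 10 transporters (horizontal axis), with Hampshire libraries in blue, Mali libraries in orange, circles for replicate 1, squares for replicate 2 and short bars for the mean of the 2 libraries of a breed. SLC43A2, SLC3A2 and SLC7A8 show both Mali libraries above both Hampshire libraries, and SLC1A5 shows the opposite.

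Transcripts of the heavy chain and of SLC43A2 and SLC7A8 were higher in Mali muscle, and those of the glutamine carrier SLC1A5 were higher in Hampshire muscle. In the limma fit across all genes without a term for replicate number, 0 of 10075 genes (0.0%) had an adjusted p under 0.05, with 714 at an unadjusted p under 0.05, and 0 of the 8 transporters were therefore called. Of these 8, 5 had both Hampshire libraries below both Mali libraries, as did 23.6% of all kept genes, and 1 had both Hampshire libraries above, as did 13.0%. With a term for replicate number, 261 genes were called (2.59%), 83 lower (0.824%) and 178 higher (1.77%) in Hampshire, and SLC7A8 and SLC43A2 were among the lower. With median-of-ratios size factors added to that fit, 55 genes and 0 transporters were called. Because the genes were chosen with this contrast in view, nothing is read from these counts. The median log2 difference (Hampshire minus Mali, on the log2(FPKM + 1) scale) was -0.44 for the 8 transporters and -0.12 for all kept genes. Without Mali replicate 1 these medians were -0.079 and -0.13, so the transporters then lay slightly above the kept genes as a whole. In whole muscle, fewer cells of a type and less RNA per cell cannot be told apart.

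SLC3A2 encodes the heavy chain that carries the SLC7 exchangers to the cell surface and lies on chromosome 2 (8892071 to 8919070, minus strand, Sscrofa11.1). Its level was 32.4 and 9.95 FPKM in Hampshire replicates 1 and 2, compared with 51.9 and 58.2 FPKM in Mali replicates 1 and 2. The breeds did not overlap. The Mali libraries lay close together and the Hampshire libraries lay 3.25-fold apart. Breed means were 21.2 ± 15.9 and 55.1 ± 4.46 FPKM (SD, n = 2 each), 2.60-fold higher in Mali. The log2 difference was -1.55 with a standard error of 0.60, made up of -0.67 between the replicate 1 libraries and -2.44 between the replicate 2 libraries.

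SLC7A8 encodes LAT2, an exchanger of large and small neutral amino acids that needs the heavy chain (chromosome 7, 75854700 to 75921931, plus strand). Hampshire replicates 1 and 2 had 2.55 and 5.71 FPKM, Mali replicates 1 and 2 had 8.84 and 49.2 FPKM. All breed values were apart, but Mali replicate 2 stood 5.57-fold above Mali replicate 1, the widest spread within a breed among these genes where both libraries were above 0. The breed means of 4.13 ± 2.24 and 29.0 ± 28.5 FPKM (SD, n = 2 each) were 7.03-fold apart, and the Mali mean rests largely on that library. The log2 difference was -2.19 (standard error 0.76), with -1.47 for the replicate 1 and -2.90 for the replicate 2 libraries.

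Keratins of skin were high in Mali replicate 2. The 6 measured skin genes summed to 27.7 FPKM in that library, against 9.22 in Mali replicate 1 and 4.42 and 8.26 in the Hampshire libraries. KRT10 made up most of that sum, with 15.96 FPKM there and 0.985 to 1.06 FPKM in the other 3 libraries. TP63, a transcription factor of skin epithelium, was not highest there, with 6.86 FPKM compared with 8.06 in Mali replicate 1 and 3.33 and 6.94 in the Hampshire libraries. The keratin KRT1 was at 2.71 FPKM in Mali replicate 2 and at 0, 0.0159 and 0 in Hampshire replicates 1 and 2 and Mali replicate 1, while KRT5 was at 1.19 FPKM there and listed at 0 in the other 3 libraries. The part of skin RNA in the SLC7A8 value was not tested. Without Mali replicate 2 the log2 difference of SLC7A8 was -1.01. SLC7A8 was also among the genes called after rescaling all libraries to a common sum (0.675% of genes called), and after the same rescaling without mitochondrial genes (0.625%).

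SLC7A5 encodes LAT1, the exchanger best known for bringing leucine into cells in return for glutamine (chromosome 6, 1545940 to 1574298, plus strand). The annotation in the deposited table classes its transcript as a long non-coding RNA, and the RefSeq table lists 0 protein records for it, so its FPKM rests on an imperfect gene model. Hampshire libraries had 7.77 and 3.65 FPKM of it, Mali libraries 8.84 and 5.75 FPKM. The breeds overlapped, and in both breeds replicate 1 was the higher library. The log2 difference was -0.35 with a standard error of 0.44. SLC7A6 encodes y+LAT2, an exchanger of cationic for neutral amino acids (chromosome 6, 28834797 to 28876154, plus strand), and had 1.14 and 1.29 FPKM in the Hampshire libraries, compared with 2.18 and 1.34 FPKM in those of Mali. The breeds did not overlap, but the nearest libraries, Hampshire and Mali replicate 2, differed by only -0.029 on the log2 scale, and the difference over all 4 libraries was -0.30 with a standard error of 0.31. SLC7A6 shares 1935 bases with SLC7A6OS on the other strand, which was at 3.27 to 7.46 FPKM, and no source used here states whether counting used strand, so its values are uncertain.

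Heavy and light chains can be compared within a library, where scaling between libraries plays no part. The imperfect gene model of SLC7A5 and the uncertain SLC7A6 values limit the sums, shares and ratios below. The 3 light chains SLC7A5, SLC7A6 and SLC7A8 summed to 11.5 and 10.6 FPKM in the Hampshire libraries and to 19.9 and 56.3 FPKM in the Mali libraries. The ratio of SLC3A2 to that sum was 2.82 and 2.61 in the replicate 1 libraries of Hampshire and Mali, and 0.935 and 1.03 in the replicate 2 libraries. The ratio thus followed the replicate number and not the breed. SLC7A8 made up 22.2% and 53.6% of the light chain sum in Hampshire replicates 1 and 2 and 44.5% and 87.4% in Mali replicates 1 and 2, while the share of SLC7A5 was 67.8%, 34.2%, 44.5% and 10.2% in the same order. Within each replicate number, the share of SLC7A8 was higher and that of SLC7A5 lower in the Mali library.

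**Figure D2:**
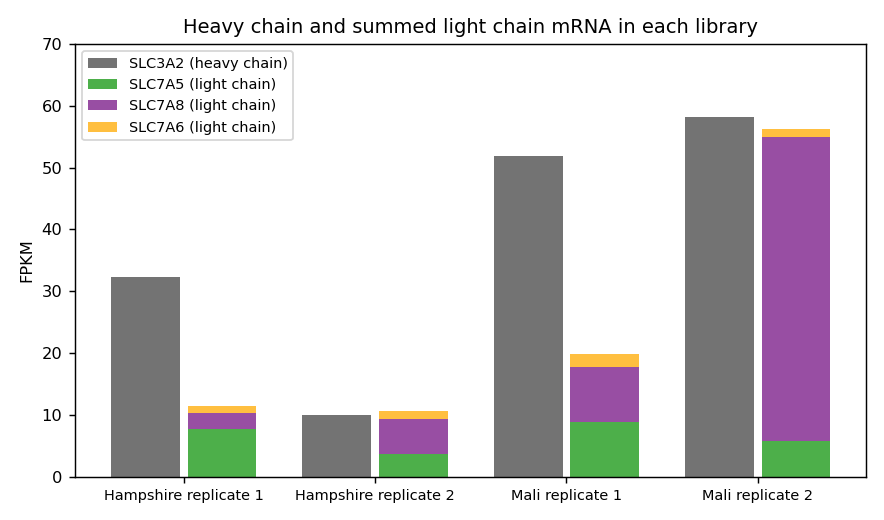
Bars give FPKM (vertical axis, from 0) in each of the 4 libraries, with SLC3A2 in grey beside the stacked light chains SLC7A5 (green), SLC7A8 (purple) and SLC7A6 (yellow). Heavy chain exceeds summed light chains 2.82-fold and 2.61-fold in the replicate 1 libraries and is near their sum in the replicate 2 libraries, and SLC7A8 fills most of the light chain bar of Mali replicate 2.

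SLC43A2 encodes LAT4, a carrier of leucine and other large neutral amino acids that works by facilitated diffusion without a heavy chain (chromosome 12, 47791911 to 47839127, minus strand). Its level was 3.81 and 4.27 FPKM in the Hampshire libraries, compared with 14.7 and 16.2 FPKM in those of Mali, with tight libraries in both breeds and a wide gap between them. The breed means were 4.04 ± 0.323 and 15.4 ± 1.08 FPKM (SD, n = 2 each), 3.82-fold higher in Mali. Both replicate numbers gave nearly the same ratio of Mali to Hampshire, 3.85 and 3.80, and a log2 difference of -1.70 and -1.71. Over all 4 libraries it was -1.71 with a standard error of 0.36. The ratio of SLC43A2 to SLC7A5 FPKM was 0.490 and 1.17 in Hampshire and 1.66 and 2.82 in Mali. By these values SLC43A2 was the more abundant of this pair in both Mali libraries and in Hampshire replicate 2. That ranking is uncertain, since the SLC7A5 value rests on an imperfect gene model. SLC43A1, which encodes the related carrier LAT3 (chromosome 2, 13407046 to 13436270, plus strand), had 0.0476 and 0.0260 FPKM in the Hampshire libraries, 0.0651 in Mali replicate 1 and listed at 0 in Mali replicate 2. These values are too low for a comparison, and an exact 0 in this table need not mean absence, since SEH1L, a nuclear pore gene, is also listed at 0 in 3 of the 4 libraries.

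SLC38A2 encodes SNAT2, the sodium-coupled carrier of small neutral amino acids that many cells raise when amino acids are scarce (chromosome 5, 77113491 to 77127715, minus strand). Its level was 26.5 and 30.0 FPKM in the Hampshire libraries, compared with 42.5 and 27.7 FPKM in those of Mali. The breeds overlapped, and Mali replicate 1 alone stood above the rest. The difference was -0.66 within replicate 1 and 0.11 within replicate 2 on the log2 scale, so its direction changed between them, and -0.28 over all 4 libraries with a standard error of 0.45. SLC38A2 had the smallest spread of the 9 transporters detected in all libraries, with 1.61-fold between the highest and lowest library.

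SLC1A5 encodes ASCT2, a sodium-dependent exchanger of glutamine and other neutral amino acids (chromosome 6, 52647432 to 52661464, minus strand). Its level was 4.33 and 5.67 FPKM in the Hampshire libraries, compared with 2.11 and 1.78 FPKM in those of Mali. It was the single kept transporter with both Hampshire libraries on top. The breed means were 5.0 ± 0.952 and 1.95 ± 0.229 FPKM (SD, n = 2 each), 2.57-fold higher in Hampshire. The log2 difference was 1.02 (standard error 0.33), with 0.78 in the replicate 1 and 1.26 in the replicate 2 libraries. The ratio of SLC38A2 to SLC1A5 was 6.12 and 5.29 in Hampshire and 20.2 and 15.5 in Mali.

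Most markers of connective tissue and immune cells had a positive log2 difference, though not all separated the breeds. Of 9 measured fibroblast markers, 8 had a positive log2 difference, and the list summed to 482 and 1437 FPKM in Hampshire and 116 and 347 FPKM in Mali. Of the 13 macrophage markers, 11 were kept and 10 of these were positive, with sums of 79.4 and 137.5 FPKM in the Hampshire libraries, compared with 52.8 and 42.1 FPKM in those of Mali. No fibroblast or macrophage marker was at 0 in every library. Of the 8 kept leukocyte markers 7 were positive, with sums of 20.4 and 26.7 against 17.8 and 15.5 FPKM. Without overlap, 7 macrophage and 5 leukocyte markers were higher in Hampshire, and 0 and 1 were lower. Among all kept genes 13.0% were separated as higher and 23.6% as lower. Endothelial markers (10 of 12 positive) summed to 70.7 and 138.6 against 72.3 and 82.0 FPKM, and adipocyte markers (5 of 7 kept positive) to 177 and 426 against 212 and 141 FPKM. Red blood cell genes summed to 2560 and 3719 FPKM in Hampshire but to 88.5 and 5489 FPKM in the Mali libraries. The smooth muscle list, which holds desmin and so reads muscle fibres as well, summed to 4194 and 2328 against 4265 and 4010 FPKM. With the term for replicate number, 1.77% of all kept genes were called as higher in Hampshire. Among these were COL1A1, COL1A2, COL3A1 and LUM of the fibroblast list, LYZ of the macrophage list and CNN1 of the smooth muscle list. Without that term 0 genes were called. The most abundant of these marker genes, type III collagen (COL3A1), ran from 191 to 722 FPKM in the Hampshire libraries and from 15.6 to 73.6 FPKM in those of Mali. The part of these cell types in the SLC1A5 value, or in the values of the other transporters, was not tested.

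SLC38A9 and SLC36A1 act at the lysosome. SLC38A9 senses lysosomal arginine and passes that signal to the Rag GTPases (chromosome 16, 34639575 to 34858827, minus strand). Its level was 1.56 and 1.34 FPKM in the Hampshire libraries, compared with 3.83 and 1.59 FPKM in those of Mali. The breeds did not overlap, yet Hampshire replicate 1 and Mali replicate 2 were nearly level, and the log2 difference was -0.53 (standard error 0.38), or -0.91 within replicate 1 and -0.15 within replicate 2. SLC38A9 shares 101950 bases with PLPP1 on the same strand, which was at 24.3 to 28.0 FPKM, so reads could be split between them and the SLC38A9 values are uncertain. SLC36A1 encodes PAT1, a proton-coupled carrier of small amino acids (chromosome 16, 71540646 to 71589532, minus strand), and had 0.639 FPKM in both Hampshire libraries, with Mali values of 1.10 and 0.491 FPKM, which lay on either side of them. It shares 1340 bases with LOC106506564 on the other strand, which is listed at 0 in all 4 libraries.

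**Figure D3:**
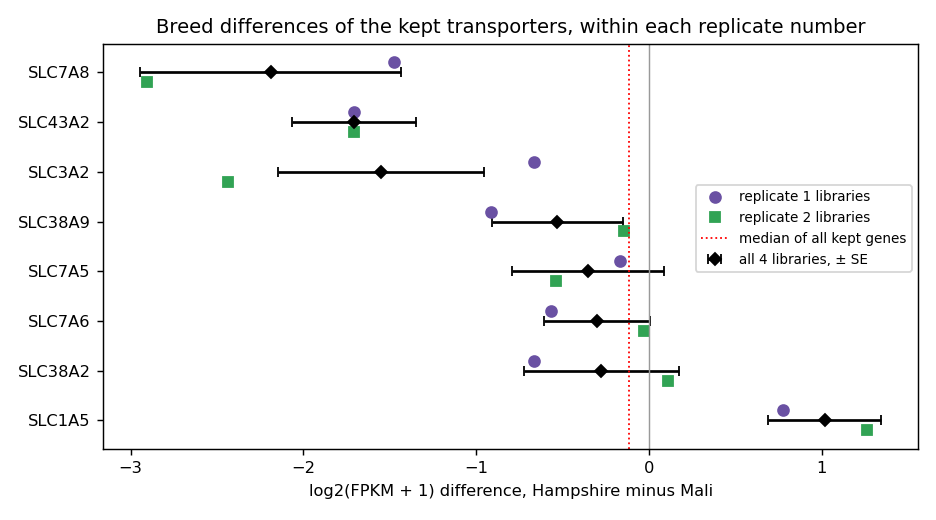
The horizontal axis gives the log2(FPKM + 1) difference, Hampshire minus Mali, for the 8 transporters that passed the filter. Diamonds with bars are the difference over all 4 libraries with its standard error, circles and squares the differences within replicate 1 and replicate 2, and the dotted line is the median of all kept genes at -0.12. SLC43A2 gives the same difference in both, SLC3A2 and SLC7A8 differ between them in size, and SLC38A2 differs in direction.

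Among the kept transporters 7 had a negative and 1 a positive log2 difference, and 60.5% of all kept genes were negative. Within both replicate numbers 6 were lower and 1 was higher in Hampshire, with SLC7A6 at only -0.029 within replicate 2. Of all kept genes 54.0% were negative between the replicate 1 libraries and 60.9% between the replicate 2 libraries. The share of kept genes negative in both was not counted. The median of the kept transporters was -0.66 between the replicate 1 libraries and -0.34 between the replicate 2 libraries, and the median of all kept genes was -0.05 and -0.17. As a description of where the largest differences lay, 0.169% of kept genes had a lower log2 difference than SLC7A8, 0.467% a lower value than SLC43A2 and 0.665% a lower value than SLC3A2, and 3.47% had a higher value than SLC1A5. In the authors' deposited table, SLC7A8 was the single transporter of the 10 marked significant, with a q-value of 0.0433, where 65 of 30212 rows (0.215%) were marked. SLC43A2 had a q-value of 0.0688 in the authors' deposited table, and SLC3A2 and SLC1A5 had 0.501 and 0.659.

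Genes with the most similar pattern over the 4 libraries were found by the distance between centred log2(FPKM + 1) values, among kept genes with a mean of at least 5 FPKM. For SLC43A2 these were CD59, an inhibitor of complement lysis, the proteasome ATPase subunit gene PSMC1, and GADD45G, a stress-inducible gene, at distances of 0.099, 0.157 and 0.192. CD59 had 43.2 and 49.8 FPKM in the Hampshire libraries, compared with 137 and 152 FPKM in those of Mali. For SLC7A5 they were STT3B, a subunit of oligosaccharyltransferase, HMGN4, a nucleosome-binding protein, and CDK5RAP1, a tRNA-modifying enzyme, at distances of 0.051, 0.059 and 0.067. Among the transporters themselves, SLC7A6 and SLC38A2 were closest, at 0.128. SLC3A2 and SLC43A2 were 1.24 apart.

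Other amino acid transporters of the cell surface showed no common direction. Of 35 such genes, 6 passed the filter and 9 were listed at 0 in every library. In the fit without a term for replicate number 0 of the 6 were called, and 2 were separated as lower and 1 as higher in Hampshire (23.6% and 13.0% of all kept genes). Their median log2 difference was 0.03, which turned to -0.28 when libraries were rescaled to a common sum, a rescaling that moved the median of all kept genes from -0.12 to -0.40. SLC38A4, a sodium-coupled carrier expressed in muscle and liver, had 3.73 and 10.02 FPKM in the Hampshire libraries, compared with 3.72 and 1.40 FPKM in those of Mali. The breeds were barely apart, since the replicate 1 libraries of both breeds were nearly level. SLC16A10, an aromatic amino acid carrier, was at 4.12 and 3.15 against 9.97 and 4.42 FPKM. Hampshire replicate 1 and Mali replicate 2 were nearly level for SLC16A10, so these breeds too were barely apart. Further SLC3A2 partners in the SLC7 family were low, with SLC7A7 at 0.297 to 0.961 FPKM and SLC7A11, the cystine exchanger, at 0.0155 to 0.0393 FPKM.

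Carriers of the lysosome and of mitochondria likewise gave 0 calls. Of 11 lysosomal and vesicular genes 7 were kept, with 5 negative, 2 positive and a median of -0.22. Among these 7, 1 was separated as lower and 1 as higher in Hampshire (23.6% and 13.0% of all kept genes). The lower was PQLC2, the lysosomal exporter of cationic amino acids. PQLC2 had 1.80 and 1.08 FPKM in the Hampshire libraries, compared with 4.89 and 2.41 FPKM in those of Mali. The higher was SLC15A3, at 2.49 and 1.36 against 0.990 and 0.520 FPKM. Of 9 measured mitochondrial carriers 4 were kept, with 3 negative and a median of -0.22. Of these, 0 separated the breeds, where 23.6% of all kept genes did as lower and 13.0% as higher in Hampshire.

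Most genes of amino acid sensing upstream of mTORC1 had a negative log2 difference, and so did most kept genes. Of 34 genes 27 were kept, 22 with a negative and 5 with a positive log2 difference, and 8 had both Hampshire libraries below both Mali libraries while 0 had them above, beside 23.6% and 13.0% of all kept genes. The median was -0.33, where it was -0.12 for all kept genes with 60.5% of them negative, and 0 genes were called. RHEB, the small GTPase that activates mTORC1, had 94.0 and 47.4 FPKM in the Hampshire libraries, compared with 157 and 131 FPKM in those of Mali. CASTOR2, a relative of the cytosolic arginine sensor, was at 13.1 and 7.76 against 38.3 and 14.3 FPKM, with Hampshire replicate 1 and Mali replicate 2 close together.

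The amino acid response driven by ATF4, which in many cells raises SLC3A2, SLC7A5 and SLC38A2, split in direction. Of 21 genes 16 were kept, 9 negative and 7 positive, with 4 separated as lower and 4 as higher in Hampshire (23.6% and 13.0% of all kept genes), a median of -0.28 and 0 calls. With the term for replicate number 3 were called as higher in Hampshire (PHGDH, PSAT1 and PSPH) and 1 as lower (PPP1R15A), where 1.77% and 0.824% of all kept genes were, and 0 genes were called in the other pathway lists. PHGDH, the first enzyme of serine synthesis, had 47.4 and 6.03 FPKM in the Hampshire libraries, compared with 0.488 and 0.60 FPKM in those of Mali. PSAT1, the next enzyme, had 20.8 and 3.38 FPKM, compared with 0.691 and 0.969 FPKM. The last enzyme of that pathway, PSPH, was at 15.6 and 3.41 against 0.315 and 2.85 FPKM. These genes stood highest in Hampshire replicate 1. SLC3A2 was also higher in Hampshire replicate 1 than in replicate 2, with 32.4 and 9.95 FPKM, and highest in the Mali libraries, with 51.9 and 58.2 FPKM. The part of the ATF4 response in the SLC3A2 values was not tested. PPP1R15A, a phosphatase subunit that ends the integrated stress response, had 2.69 and 4.39 FPKM in the Hampshire libraries, compared with 11.2 and 9.96 FPKM in those of Mali. ATF4 itself, named here as the factor after which the list is called, overlapped between the breeds, with 1531 and 1057 FPKM in the Hampshire libraries and 1209 and 2124 FPKM in those of Mali. Heat shock genes and immediate early genes, read as signs of stress and handling, had medians of -0.74 (7 of 9 negative) and 0.43 (7 of 8 positive). Heat shock genes summed to 1431 and 892 FPKM in Hampshire and to 1583 and 1392 FPKM in Mali, and immediate early genes to 60.0 and 87.0 against 43.6 and 86.1 FPKM, and HSP70.2 was called as lower with the term for replicate number. Their part in the transporter values was not tested.

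Enzymes that use the transported amino acids had differences in both directions. Of the kept genes of branched-chain amino acid breakdown, 4 were separated as lower and 3 as higher in Hampshire. Of the kept glutamine, glutamate and alanine enzymes, 1 was separated as lower and 1 as higher. Among all kept genes these shares were 23.6% and 13.0%. Of 23 genes of branched-chain amino acid breakdown 22 were kept, 10 negative and 12 positive, with a median of 0.04 that became -0.27 once libraries were rescaled to a common sum. BCAT2, the mitochondrial transaminase that starts leucine breakdown in muscle, had 71.2 and 41.4 FPKM in the Hampshire libraries, compared with 21.9 and 29.6 FPKM in those of Mali. ALDH6A1, an enzyme of valine breakdown, was at 21.7 and 20.0 against 30.7 and 54.5 FPKM. Of 9 glutamine, glutamate and alanine enzymes 7 were kept, with 3 negative, 4 positive, 0 calls and a median of 0.43 that became 0.09 with libraries at a common sum. Glutamine synthetase (GLUL) had 71.4 and 81.4 FPKM in the Hampshire libraries, compared with 399.9 and 86.4 FPKM in those of Mali, so that Mali replicate 1 stood far above the other 3 libraries.

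**Figure D4:**
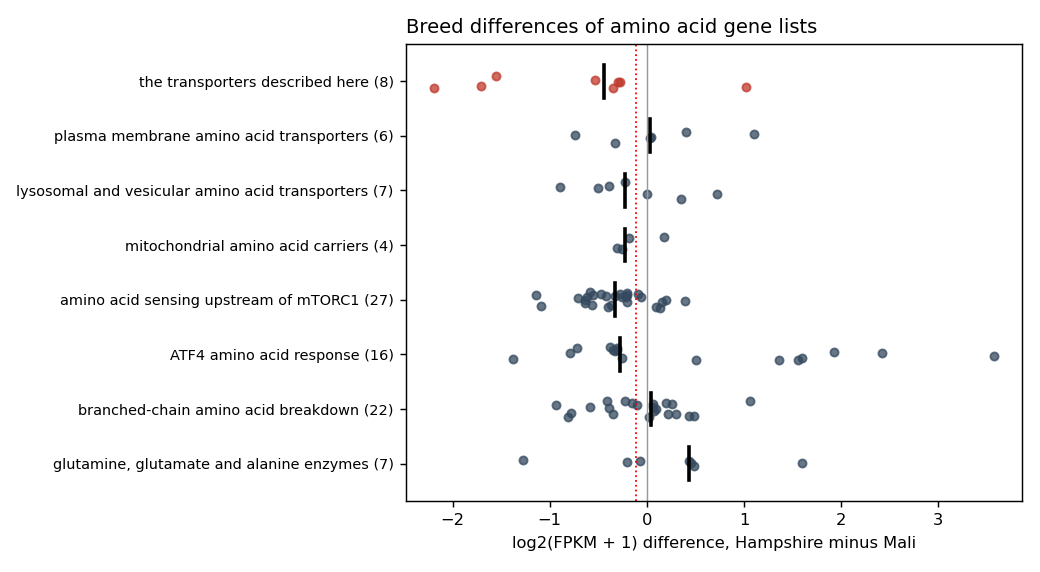
Each point is the log2(FPKM + 1) difference of a kept gene, Hampshire minus Mali (horizontal axis), for the 8 kept transporters in red and for 7 lists of related genes in dark blue, with the number of kept genes in brackets, black bars for medians and a dotted line at the median of all kept genes, -0.12. Most mTORC1 sensing genes lie left of 0, and the ATF4 list reaches from -1.37 for PPP1R15A to 3.58 for PHGDH.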

How the data were processed

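Per the labels' protocols, Trizol was used to isolate RNA and an Illumina TruSeq RNA kit to build the libraries. The submitters' processing notes name HISAT2, Bowtie 0.12.2, Picard and Cuffdiff without their roles. Build and strand setting, not given in the sources used here, could not be checked. Per the file headers, the authors deposited FPKM per gene and library, and a q-value of their own comparison. Symbols and start positions of the 10 transporters matched the Sscrofa11.1 RefSeq table, which gave the coordinates. FPKM carries no depth, and a few abundant genes can lower all others.

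Rows of a symbol were summed, 1 row without a gene name was dropped and 26 symbols turned into dates were restored. The genes kept (1 FPKM or more in 2 or more libraries) were fitted on the log2(FPKM + 1) scale by limma 3.58.1, run in R 4.3.3. The fit used a mean-variance trend, two-sided p-values and Benjamini-Hochberg adjustment over 10075 genes, with a threshold of 0.05. Its test on simulated data included no effect of replicate number or library scale, so it does not show the error rate in these libraries. Fold changes on this scale understate low genes. The labels name no separate animals, so p-values reflect the spread of these libraries alone, which may be technical. Replicates were numbered in accession order. Members and gene lists were chosen with earlier results of these data known. Of each pathway list, called genes and the 2 largest differences without overlap and at least 5 FPKM in the higher breed were named; of marker lists, abundant or called genes. Other genes named were chosen after their values were seen, and 1 gene that the rule takes is not reported here. Newer symbols of 4 list genes were matched to those in the file, and 6 list genes were not analysed here. Alternatives were other pseudocounts, filters, scalings and limma settings, libraries left out, and a replicate block. Figures were drawn with matplotlib 3.10.9.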

Additional observations from a re-analysis of the deposited data

How the results depend on the processing

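With the replicate number from the title suffix as a block in the limma fit, 261 genes (2.59%) had an adjusted p under 0.05, 83 lower (0.824%) and 178 higher (1.77%) in Hampshire, among them SLC7A8 and SLC43A2, both lower. With size factors by median of ratios added to the block, 55 genes and 0 transporters were called. Nothing in the labels says that the suffix pairs samples, and with 2 pairs the correlation of deviations, 0.275, is only a hint from the data. The block fit has 1 residual degree of freedom. Calls also appeared after rescaling to a common sum (68 genes, 0.675%, 21 higher and 47 lower) and after the same rescaling without mitochondrial genes (63 genes, 0.625%, 32 higher and 31 lower), with SLC7A8 called in each. With a mean of at least 5 FPKM 1 gene was called, and with a library left out 0 to 7 genes, with 0 transporters in each.

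The count of transporters wholly lower in Hampshire, with both libraries below both Mali libraries, was 3 instead of 5 with a mean of at least 5 FPKM, with size factors (with or without the block) and with the rescaling without mitochondrial genes. Of the genes fitted, 28.2%, 17% and 19.9% were wholly lower in these settings, in that order, compared with 23.6% in the main fit. The transporters wholly lower in all 16 alternatives were SLC3A2, SLC7A8 and SLC43A2. SLC1A5 was wholly higher in all but the filter of 5 FPKM, which removed it (0 genes). With a library left out the count of lower transporters was 5 to 7. In those settings 37.1% to 44.9% of all kept genes were wholly lower, since a breed with a single library separates more easily. The median of the transporters was -1.55 with the filter of 5 FPKM, where 5 were left, and -0.74 after rescaling to a common sum. With a library left out it ran from -0.80 (without Mali replicate 2) to -0.079 (without Mali replicate 1, where all kept genes had -0.13), and it was -0.70 without Hampshire replicate 1. The direction turned for SLC38A2 without Mali replicate 1 (0.026; lowest with a library left out, -0.58 without Mali replicate 2) and for SLC7A5 without Hampshire replicate 2 (0.11; lowest, -0.81 without Hampshire replicate 1). The other 6 kept transporters kept their direction under each alternative, with SLC43A2 between -2.01 and -1.57, SLC3A2 between -2.35 and -0.75, SLC7A8 between -3.36 and -1.01 and SLC1A5 between 0.75 and 1.31. The cause of these shifts was not tested. Depth is unknown, so the counting error of each value is too.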
